A study of Homo sapiens with 18 samples.

Results

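The RKO samples of the series were taken as 1 experiment: 3 columns of cells in which a short hairpin RNA against MUC1 was induced with doxycycline, and 3 columns of the same cells with vehicle. They are 6 of the 18 samples, chosen by cell line from the labels and by arm from the headings of the authors' table of TPM, transcript levels per length whose values sum to 1000000 in a column. RKO is an established human colon cancer line. All 6 samples carry the hairpin under a tetracycline-controlled promoter together with puromycin resistance, and were cultured in medium with 10% fetal bovine serum. The vehicle was 0.1% DMSO and the inducer 500 ng/ml doxycycline. The labels give every sample the same agent, so the headings decide the arm, and a heading of DOX with no sign was taken for the vehicle arm, since DMSO is the only other treatment the protocol names. How long the cells were treated is not given in the sources used here. RKO with a control hairpin was not analysed here, so effects of the hairpin, of the loss of MUC1 and of doxycycline itself cannot be told apart.

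MUC1 encodes a transmembrane mucin of epithelial surfaces whose C-terminal subunit passes signals into the cell. The series concerns this subunit, the stress ligands MICA and MICB, which natural killer cells recognise through the receptor NKG2D, and the release of exosomes, small vesicles of endosomal origin. Many of the gene groups below belong to cell division: cells copy their DNA in S phase with proteins whose genes are switched on by E2F factors, and E2F is held back by RB-family proteins, which CDK inhibitors such as p21 keep active.

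Before differences were taken, 242 rows of small noncoding RNA, which held 68.0% to 79.0% of TPM in a column, were removed from the 25673 listed genes. The 6 columns were then rescaled by the median ratio of each gene to its geometric mean. All levels are in rescaled TPM, given for columns 1, 2 and 3 of an arm in that order, and all differences are doxycycline minus vehicle on the log2(TPM + 1) scale with their standard error (SE). That scale understates the change of genes at low levels. Genes with a mean of at least 1 TPM, 10506 in all, were tested with limma, and a gene is called at an adjusted p under 0.05.

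Vehicle column 1 stands apart from the other columns. Over 2682 genes of 10 to 30 TPM, the SD of the log2 difference between vehicle columns 2 and 3 was 0.072, and between pairs of doxycycline columns 0.091 to 0.123. It was 0.588 and 0.589 between vehicle column 1 and the other vehicle columns, larger than the 0.353 to 0.372 between those columns and the doxycycline columns. Vehicle column 1 held 624 genes at 10 or more times every other column, among them COL1A1, a fibrillar collagen, at 51.4 TPM against at most 0.00813 TPM elsewhere. The 22 fibroblast and endothelial markers added up to 376 TPM in it and to 0.823 to 1.81 TPM in the other 5 columns. Most of the 376 TPM came from SPARC (119.7 TPM), COL1A2 (79.7), THY1 (52.8), COL1A1 and COL3A1 (38.8). The endothelial markers PECAM1, VWF, CDH5, KDR, TEK, ENG, CLDN5 and ESAM were each at or under 0.190 TPM in it. Some fibroblast markers were low too, such as PDGFRB at 0.0147 TPM. Differences and counts over all genes are therefore given over all 6 columns and without vehicle column 1, in that order. Means and SDs cover all 3 columns of an arm. The words "rose" and "fell" are used for genes called both ways, and counts of gene lists are of such genes unless stated. Most lists had more members called without vehicle column 1. A list in which none rose or none fell can therefore hold members called that way in that fit alone. The part of these transcripts in each result was not tested beyond leaving the column out.

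**Figure D1:**
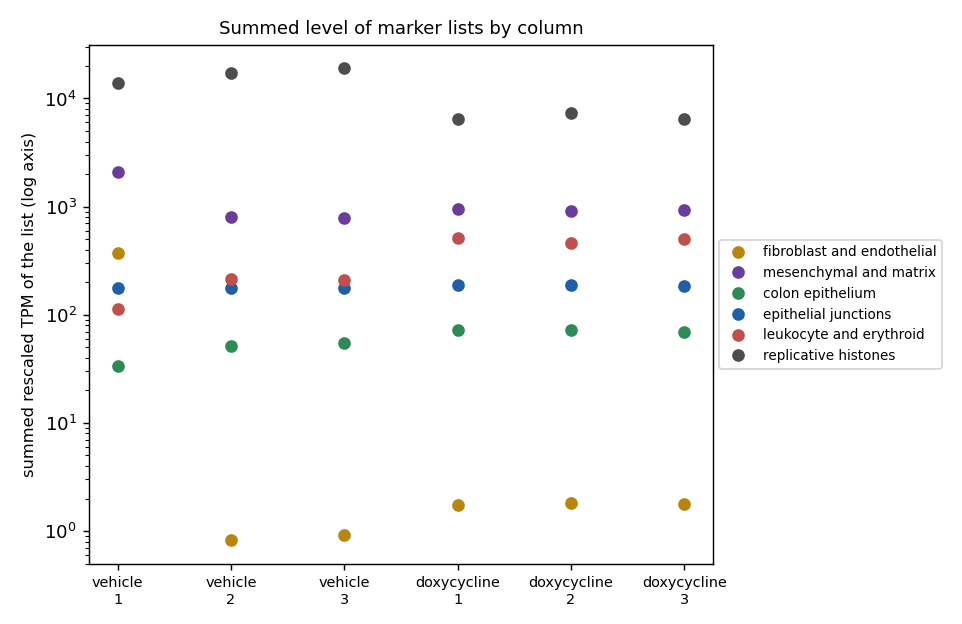
Summed rescaled TPM of cell type marker lists in each of the 6 RKO columns, on a logarithmic axis, with one point per list and column. The list of fibroblast and endothelial markers reaches 376 TPM in vehicle column 1, mostly from SPARC, COL1A2, THY1, COL1A1 and COL3A1. It stays at or under 1.81 TPM in every other column.

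The line was checked against colon markers. Of 27 genes of colon epithelial differentiation, 6 were tested and the others had a mean under 1 TPM. The intestinal transcription factor CDX2 was at 1.11, 2.43 and 2.44 against 2.77, 2.3 and 3.01 TPM (vehicle, then doxycycline), the keratin KRT18 at 20.2, 31.7 and 33.8 against 43.7, 45.1 and 42.3 TPM and the adhesion molecule EPCAM at 1.97, 3.83 and 3.79 against 5.71, 6.36 and 4.86 TPM. Villin (VIL1), KRT20 and MUC2 were listed at 0 in all 6 columns, and E-cadherin (CDH1) at 0 in all but vehicle column 1, where it was at 0.0226 TPM. CA2, also tested, was at 1.51, 2.48 and 2.86 against 1.82, 1.59 and 1.28 TPM. The columns thus hold a few genes of the colon list, not all of them particular to colon, and lack the defining markers of mature colon epithelium.

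MUC1 (chr1:155185824-155192916, minus strand, GRCh38, GENCODE release 29) was at 14.3, 1.02 and 0.981 TPM in the vehicle columns and 0.142, 0.0975 and 0.226 TPM with doxycycline. The doxycycline columns lie below every vehicle column, and vehicle column 1 is more than 10 times as high as the other vehicle columns. Relative to the vehicle mean, 2.86% remained over all columns and 15.5% without vehicle column 1. The difference was -1.77 ± 0.79 over all 6 columns and -0.79 ± 0.04 without vehicle column 1 (adjusted p = 0.15 and 7.5e-05), so MUC1 was called only without that column. Yet MUC1 reached the minimum mean of 1 TPM only through vehicle column 1. With the minimum applied without that column it would not have been tested. In all, 286 tested genes had a mean under 1 TPM over the other 5 columns. An exact two-sided permutation test gave p = 0.1 with 6 and with 5 columns, the smallest value these group sizes allow. Even in vehicle columns 2 and 3 MUC1 was a low transcript, and the other 13 listed mucins did not exceed 0.125 TPM in any column.

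Of the 8 other genes the series is about, DNMT1 had the largest difference. DNMT1, the maintenance DNA methyltransferase, was at 35.6, 36.03 and 35.5 TPM in the vehicle columns and 20.4, 20.1 and 21.004 TPM with doxycycline; the arms are well apart, and it fell (-0.77 ± 0.05 over all 6 columns and -0.77 ± 0.04 without vehicle column 1, adjusted p = 0.00092 and 4.7e-05). EZH2, the methyltransferase of Polycomb complex 2, fell by less, from 21.6 ± 0.828 to 17.8 ± 1.29 TPM (SD, n = 3 columns in each arm, as for all such values), with differences of -0.27 and -0.30. PDIA6, a disulfide isomerase tied to the shedding of MICA, also fell, from 55.9 ± 1.15 to 47.1 ± 2.09 TPM (-0.24 and -0.26). RAB27A, a small GTPase that docks exosome-bearing vesicles at the plasma membrane, rose from 1.63 ± 0.116 to 2.16 ± 0.0755 TPM (0.27 and 0.24; adjusted p = 0.042 and 0.0035). Over the columns that remained when one other column was left out, DNMT1 was called in 5 of 5 cases, EZH2 in 1, and PDIA6 (adjusted p = 0.058 to 0.13) and RAB27A (adjusted p = 0.073 to 0.16) in none. Without rescaling EZH2 and PDIA6 were not called over all columns (adjusted p = 0.074 and 0.095), and RAB27A, at 0.079 and 0.027, was called in neither fit. The de novo methyltransferases DNMT3A and DNMT3B were called lower only without vehicle column 1 (adjusted p = 0.11 and 0.017 for DNMT3A, adjusted p = 0.18 and 0.025 for DNMT3B).

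The stress ligands were low and differed by a fraction of a TPM. MICA was at 1.14, 1.003 and 0.946 TPM in the vehicle columns and 1.45, 1.42 and 1.4 TPM with doxycycline, every doxycycline column above every vehicle column. Its difference was 0.26 ± 0.09 over all 6 columns and 0.30 ± 0.03 without vehicle column 1 (adjusted p = 0.079 and 0.00033). MICB was at 1.22, 0.979 and 0.963 against 1.38, 1.36 and 1.34 TPM, again without overlap, with differences of 0.20 and 0.26 (adjusted p = 0.16 and 0.00035). Lack of overlap does not set these genes apart, as 2797 of all 10506 tested genes lay higher and 2796 lower without it. MICA and MICB were thus called higher only without vehicle column 1. ULBP2, another NKG2D ligand, lay the other way at 3.9, 6.51 and 5.65 against 3.4, 3.98 and 3.68 TPM (-0.42 and -0.59; adjusted p = 0.1 and 0.0013) and was called lower only without that column. Without rescaling the median of the 4 tested NKG2D ligands came to 0.01 over all columns against 0.22 with it.

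**Figure D2:**
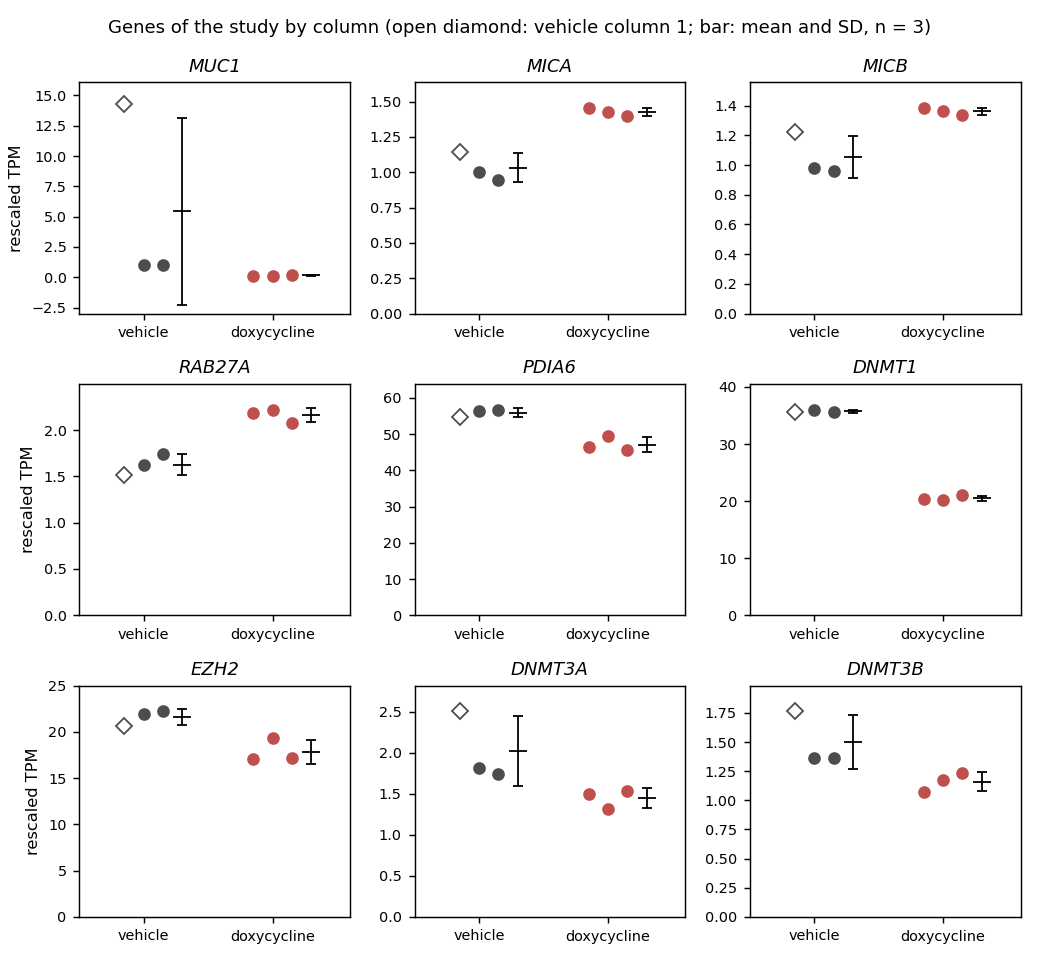
Rescaled TPM of the genes the series is about, one panel per gene with its own linear axis. Points are the 3 vehicle columns (column 1 as an open diamond) and the 3 doxycycline columns, with bars for the mean and SD of each arm, and the MUC1 panel shows vehicle column 1 at 14.3 TPM against 1.02 and 0.981 TPM in the other vehicle columns.

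Across all genes, 1453 of 10506 (13.8%) were called higher with doxycycline and 1502 (14.3%) lower over all 6 columns. Without vehicle column 1 the counts were 2954 (28.1%) and 2930 (27.9%). Called both ways were 1446 higher (13.8%) and 1501 lower (14.3%), and no gene was called in opposite directions. All 2947 had arms that did not overlap, but so had many genes not called: of all 10506, 2797 lay higher and 2796 lower without overlap. The median SE of a difference was 0.10 over all columns and 0.05 without vehicle column 1. Leaving out each other column moved the counts by over 1.5 times in most cases: 541 higher and 647 lower without doxycycline column 1, 665 and 803 without doxycycline column 2, and 629 and 731 without doxycycline column 3. Without vehicle column 2 the counts were 1008 and 980, and without vehicle column 3 they were 1012 and 1034. The balance of directions depends on the scaling. Without rescaling the median difference of all genes was -0.26 in place of -0.01, and 224 genes were called higher and 1733 lower, so that 11.4% of calls were higher in place of 49.2%. Changes below are relative to the median gene, and for gene groups that rose the count without rescaling is given too.

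**Figure D3:**
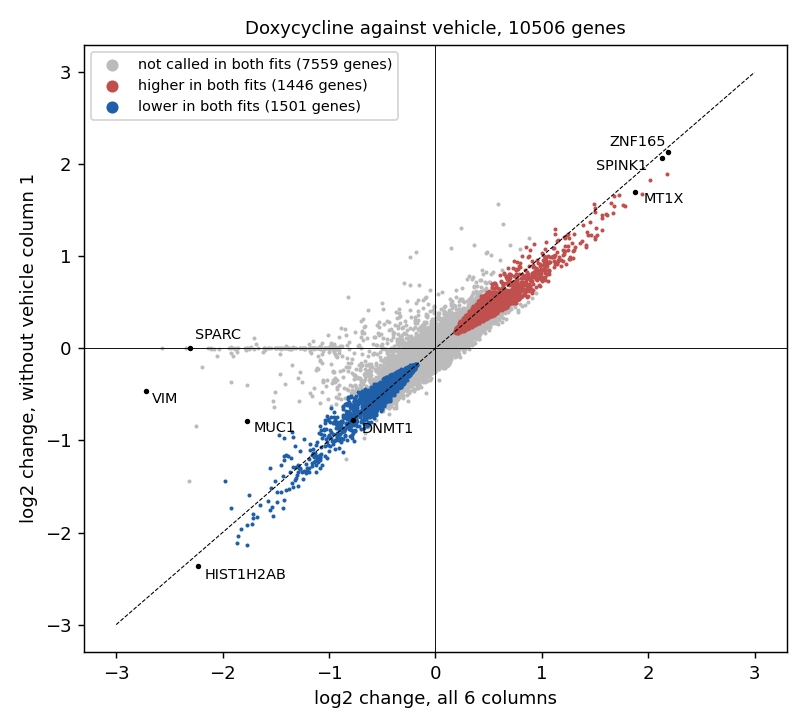
Log2 differences of the tested genes over all 6 columns (horizontal axis) against those without vehicle column 1 (vertical axis), one point per gene, with genes called both ways in colour. The 1446 genes higher and 1501 lower in both fits lie on the same side of 0 on both axes.

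Genes whose difference exceeded 1 on the log2 scale both ways were 66 higher and 95 lower. The 12 with the largest rise were ZNF165, SPINK1, SUN3, TRIB3, MT1X, PRSS22, ABHD5, OSGIN1, LCE1F, LOC100126784, C19ORF33 and BHLHE40. ZNF165, a zinc finger gene known as a cancer-testis antigen, was at 0.743, 1.04 and 0.842 TPM in the vehicle columns and 7.41, 7.49 and 7.68 TPM with doxycycline (2.19 ± 0.08 over all 6 columns and 2.13 ± 0.06 without vehicle column 1; adjusted p = 0.00038 and 3.2e-05). SPINK1, a secreted trypsin inhibitor, was listed at 0, 0 and 0.254 TPM in the vehicle columns and 4.28, 3.89 and 3.05 TPM with doxycycline. TRIB3, a pseudokinase induced in the integrated stress response, was at 10.9, 16.8 and 15.9 TPM in the vehicle columns and 55.1, 63.3 and 64.3 TPM with doxycycline, with differences of 2.01 and 1.83. ABHD5, the coactivator of the lipase that opens lipid droplets, was at 3.55, 4.21 and 4.07 TPM in the vehicle columns and 15.1, 15.3 and 15.5 TPM with doxycycline, and BHLHE40, a transcriptional repressor, at 23.2, 31.1 and 30.5 TPM in the vehicle columns and 92.9, 88.2 and 94.5 TPM with doxycycline. In each of these 5 genes the lowest doxycycline column is over 2 times the highest vehicle column.

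Of the 12 genes with the largest fall, 11 encode replication-dependent histones, and the other, LOC105378614, is an uncharacterised locus. The histones are HIST1H2AB, HIST1H4D, HIST1H2BM, HIST1H4I, HIST1H2BH, HIST1H3J, HIST1H3A, HIST1H2BF, HIST1H4B, HIST2H3D and HIST2H2BF. HIST1H2AB was at 75.9, 95.2 and 106 TPM in the vehicle columns and 17.9, 21.9 and 16.8 TPM with doxycycline (-2.23 ± 0.15 over all 6 columns and -2.36 ± 0.11 without vehicle column 1; adjusted p = 0.00092 and 4.9e-05). HIST1H4B was at 938, 1208 and 1261 TPM in the vehicle columns and 342, 367 and 324 TPM with doxycycline, and HIST2H2BF at 183, 192 and 209.6 TPM in the vehicle columns and 56.2, 68.6 and 59.6 TPM with doxycycline. The 12 genes of each direction were taken only from genes whose arms do not overlap. The gap between the arms in these 3 thus follows from that choice.

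Replication-dependent histone genes package new DNA in S phase, and their messages normally end in a stem-loop in place of a poly(A) tail. Of 74 listed, 55 were tested. Of these, 46 fell and none rose, with a median of -1.32 over all 6 columns and -1.34 without vehicle column 1, and all tested genes had medians of -0.01 and 0.00. Their summed level was 14038, 17318 and 19045 TPM in the vehicle columns and 6510, 7380 and 6443 TPM with doxycycline. The libraries were made with a poly(A)-selecting kit, and the copies are near-identical, so reads can be split among them and single members are uncertain. The linker histone HIST1H1C went from 689 ± 7.5 to 339.9 ± 4.53 TPM (-1.02 and -1.02). Of 8 tested histones made outside S phase, 3 fell, H2AFZ from 259 ± 6.2 to 131 ± 10.4 TPM (-0.98 and -0.97) among them.

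Genes that load the replicative helicase fell in most members. MCM2 to MCM7 form the ring that unwinds DNA, and MCM3 (chr6:52264009-52284881, minus strand) was at 32.8, 34.2 and 34.3 TPM in the vehicle columns and 13.5, 12.6 and 13.9 TPM with doxycycline (-1.28 ± 0.06 over all 6 columns and -1.30 ± 0.05 without vehicle column 1; adjusted p = 0.00038 and 4.1e-05). MCM5 was at 19.2, 22.5 and 23.03 TPM in the vehicle columns and 6.99, 7.2 and 6.95 TPM with doxycycline, MCM2 went from 27.8 ± 3.04 to 11.4 ± 0.169 TPM (-1.21 and -1.30) and MCM4 from 53.5 ± 0.424 to 23.97 ± 0.312 TPM (-1.13 and -1.13). GINS2, a subunit that activates the ring, went from 27.96 ± 5.81 to 9.18 ± 0.713 TPM (-1.49 and -1.67). CDC6, which loads the ring, and ORC1, of the complex that marks origins, also fell, with differences of -1.12 and -1.27 for CDC6 and -1.11 and -1.01 for ORC1. In all, 20 of 24 tested licensing genes fell and none rose, with a median of -0.81 over all 6 columns and -0.94 without vehicle column 1. Leaving out any one other column kept 17 to 19 of them called lower over the remaining columns, and 19 were lower both ways without rescaling.

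At the replication fork, 30 of 33 tested genes fell and 1 rose, with a median of -0.80 over all 6 columns and -0.80 without vehicle column 1. PCNA, the sliding clamp, was at 83.9, 99.2 and 101 TPM in the vehicle columns and 42.9, 46.9 and 39.8 TPM with doxycycline (-1.11 ± 0.10 over all 6 columns and -1.20 ± 0.07 without vehicle column 1; adjusted p = 0.0015 and 7.6e-05). POLA2, a subunit of the polymerase that starts each fragment, went from 7.09 ± 0.235 to 2.54 ± 0.126 TPM (-1.19 and -1.20), and PRIM1, the primase, from 16.9 ± 1.96 to 6.16 ± 0.0515 TPM (-1.31 and -1.41). The gene that rose is POLD4, the smallest subunit of polymerase delta, at 4.4, 3.09 and 2.94 TPM in the vehicle columns and 6.08, 6.1 and 6.93 TPM with doxycycline (0.73 and 0.87). Without rescaling POLD4 was not called both ways.

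E2F factors are known to act at promoters of such genes, and 2 that carry an E2F word are printed to be read beside the values of MCM3 and POLA2. The words searched on both strands in the 250 bases before the listed start (RefSeq, GRCh38.p14) were TTTGGCGC, TTTCCCGC, TTTGCCGC and TTTCGCGC. They occur in 13 of 50 matched licensing and fork genes (26.0%), in 2.79% of all 27305 promoters of the table and in 4.98% of 8560 matched tested genes. The upstream 200 bases are given 5′ to 3′ in the direction of the gene, with the word in capitals, for MCM3 (chr6:52284743-52284942, minus strand) and POLA2 (chr11:65261762-65261961, plus strand). A word is a match of letters and does not show that a factor binds there.
MCM3: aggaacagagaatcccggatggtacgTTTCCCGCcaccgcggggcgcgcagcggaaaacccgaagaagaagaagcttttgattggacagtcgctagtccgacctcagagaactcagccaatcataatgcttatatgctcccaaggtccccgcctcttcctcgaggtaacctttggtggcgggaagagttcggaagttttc
POLA2: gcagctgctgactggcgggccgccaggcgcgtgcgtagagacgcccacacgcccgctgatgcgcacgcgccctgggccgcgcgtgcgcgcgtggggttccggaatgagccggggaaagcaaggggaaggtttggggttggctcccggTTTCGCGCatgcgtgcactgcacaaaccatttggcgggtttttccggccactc

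Genes of nucleotide supply fell in part. Of 25 tested genes of nucleotide synthesis, 13 fell and 1 rose (8 to 11 lower and 0 to 1 higher with another column left out, 0 higher and 11 lower without rescaling), with a median of -0.27 over all 6 columns and -0.35 without vehicle column 1. TYMS, thymidylate synthase, was at 35.4, 43.6 and 44.9 TPM in the vehicle columns and 16.01, 18.98 and 16.01 TPM with doxycycline (-1.23 ± 0.12 over all 6 columns and -1.33 ± 0.08 without vehicle column 1). TK1, thymidine kinase, went from 21.5 ± 0.419 to 10.9 ± 0.326 TPM (-0.92 and -0.93), DUT, which removes dUTP, from 13.7 ± 2.07 to 5.32 ± 0.491 TPM (-1.21 and -1.33), and RRM2, the ribonucleotide reductase subunit that limits dNTP supply, from 64.7 ± 8.88 to 34.8 ± 3.26 TPM (-0.87 and -0.99). PPAT, the first committed enzyme of purine synthesis, rose from 11.6 ± 1.36 to 15.1 ± 0.716 TPM (0.36 and 0.26), but its difference was -0.037 when both vehicle column 1 and the rescaling were left out.

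Of 29 tested genes of the E2F and RB switch, 11 fell and 2 rose (8 to 11 lower and 1 to 2 higher with another column left out, 1 higher and 12 lower without rescaling). E2F1, an activating E2F, was at 13.3, 12.5 and 12.7 TPM in the vehicle columns and 4.58, 4.42 and 4.91 TPM with doxycycline (-1.29 ± 0.06 over all 6 columns and -1.27 ± 0.05 without vehicle column 1; adjusted p = 0.00038 and 4.1e-05). RBL1, the RB relative p107, was at 8.94, 8.49 and 7.74 TPM in the vehicle columns and 2.46, 2.51 and 2.47 TPM with doxycycline (-1.43 and -1.39). CCNE2, an E-type cyclin, went from 14.9 ± 0.164 to 6.16 ± 0.738 TPM (-1.16 and -1.15). The genes that rose are CDKN1A, which encodes the CDK inhibitor p21, and CCNE1, the other E-type cyclin. CDKN1A was at 15.4, 23.7 and 25.1 TPM in the vehicle columns and 52.2, 52.3 and 56.4 TPM with doxycycline (1.32 ± 0.18 over all 6 columns and 1.11 ± 0.05 without vehicle column 1; adjusted p = 0.0046 and 4.5e-05), its lowest doxycycline column above 2 times the highest vehicle column. CCNE1 differed by only 0.31 and 0.27, and by -0.032 when both vehicle column 1 and the rescaling were left out. Values for RB1 itself were 10.7 ± 2.23 and 10.5 ± 0.446 TPM, not called over all columns (adjusted p = 0.98 and 0.023).

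**Figure D4:**
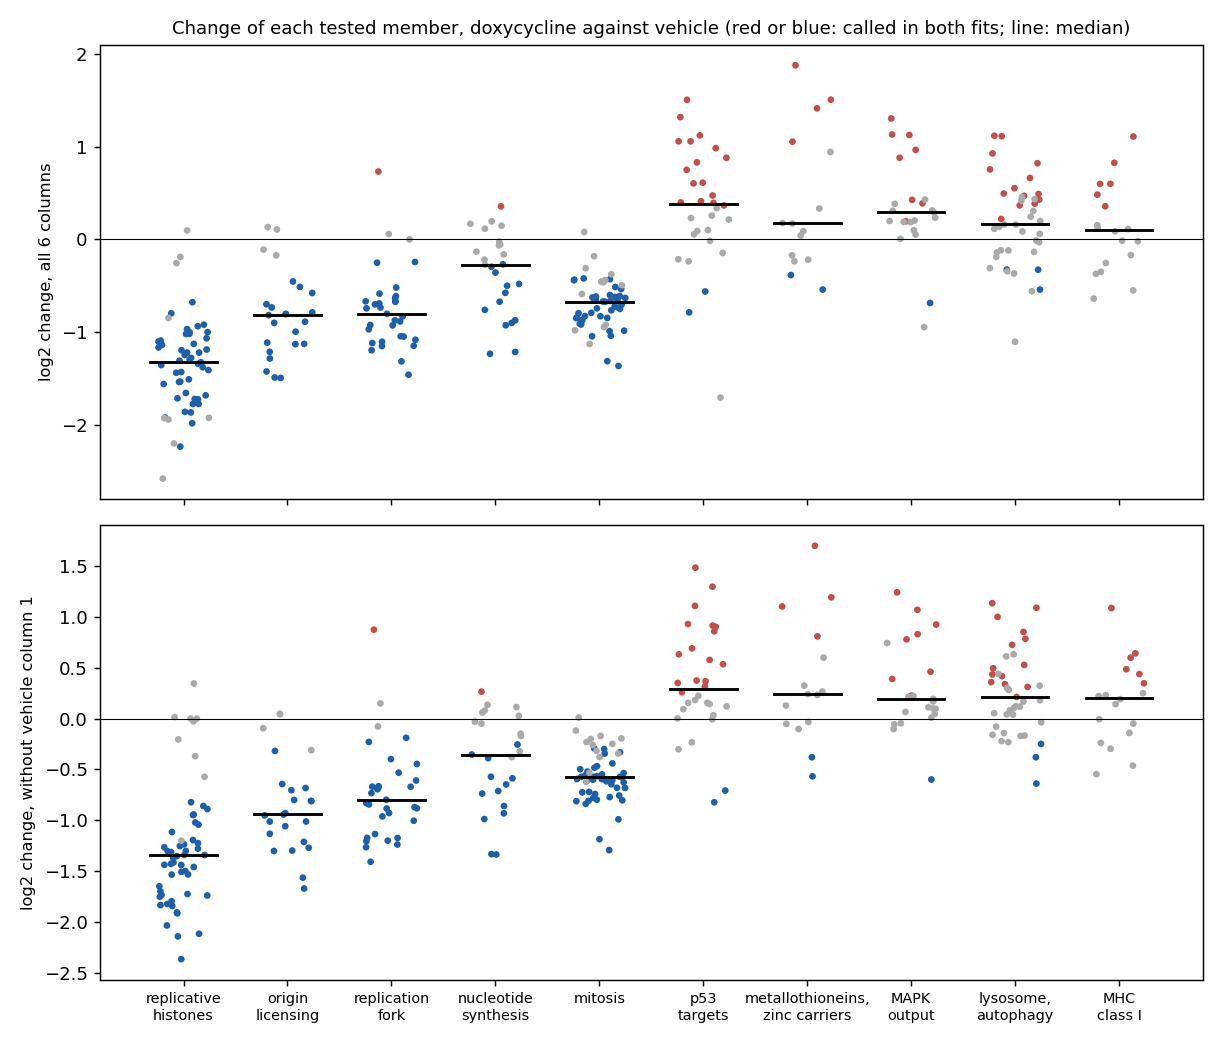
Log2 differences, doxycycline minus vehicle, of each tested member of 10 gene lists, over all 6 columns (upper panel) and without vehicle column 1 (lower panel); points are genes, red or blue where called higher or lower in both fits and grey otherwise, and bars are list medians. The medians of replication-dependent histones (-1.32 and -1.34), origin licensing (-0.81 and -0.94) and the replication fork (-0.80 and -0.80) lie well below 0, and that of p53 targets (0.38 and 0.29) above.

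Mitotic genes fell in most members. Of 55 tested genes of mitosis and the kinetochore, 42 fell and none rose, with a median of -0.67 over all 6 columns and -0.57 without vehicle column 1. KIF11, the kinesin that pushes spindle poles apart, was at 22.4, 21.6 and 20.2 TPM in the vehicle columns and 11.1, 11.6 and 11.7 TPM with doxycycline (-0.84 ± 0.06 over all 6 columns and -0.81 ± 0.05 without vehicle column 1; adjusted p = 0.00098 and 7.7e-05). BUB1B, of the spindle checkpoint, went from 21.996 ± 0.304 to 13.6 ± 0.659 TPM (-0.65 and -0.65). Some mitotic messages were higher in vehicle column 1 than in the other vehicle columns, and the difference over all columns was then larger: CDC20, the activator of the anaphase-promoting complex, was at 72.01, 44.4 and 44.4 TPM in the vehicle columns and 24.9, 24.6 and 25.3 TPM with doxycycline, with differences of -1.04 and -0.81. The count called lower ranged from 24 to 39 when any one other column was left out. Cohesin and condensin, the rings that hold and fold chromosomes, had 15 of 18 genes lower and none higher (11 to 14 lower with another column left out). SMC1A of cohesin was at 15.7, 17.01 and 16.6 TPM in the vehicle columns and 8.69, 8.71 and 8.7 TPM with doxycycline (-0.85 and -0.88) and NCAPG2 of condensin went from 12.6 ± 1.23 to 5.9 ± 0.52 TPM (-0.98 and -0.91).

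For KIF11 (chr10:92592930-92593129, plus strand) and BUB1B (chr15:40160869-40161068, plus strand) the upstream 200 bases are printed because 22 of 45 matched mitotic genes (48.9%) hold the word TTTGAA of the cell cycle genes homology region. The word was searched on both strands in the same windows, and TTCAAA is its reverse. It occurs in 13.6% of all promoters, in 8.07% of tested genes and in 11.9% of those lower both ways. The word is not particular to mitotic genes, as 19 of 45 matched replication-dependent histone genes (42.2%) hold it too.
KIF11: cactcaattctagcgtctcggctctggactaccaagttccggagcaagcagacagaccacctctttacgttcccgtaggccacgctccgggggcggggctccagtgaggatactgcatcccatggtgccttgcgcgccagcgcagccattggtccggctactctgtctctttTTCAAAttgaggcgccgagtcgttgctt
BUB1B: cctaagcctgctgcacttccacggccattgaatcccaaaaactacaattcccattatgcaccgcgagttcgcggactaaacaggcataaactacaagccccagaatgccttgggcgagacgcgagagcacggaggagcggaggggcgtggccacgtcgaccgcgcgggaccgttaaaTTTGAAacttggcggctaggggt

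Histone H2B promoters are known for an octamer element. The word ATTTGCAT, on either strand, occurs in 8 of 12 matched H2B genes (66.7%), in 10 of 33 other replication-dependent histone genes (30.3%) and in 1.66% of all promoters. HIST2H2BF (chr1:149812371-149812570, minus strand; current symbol H2BC18) fell as given above. HIST1H2BO (chr6:27893225-27893424, plus strand; current symbol H2BC17) went from 329 ± 18.9 to 136 ± 11.7 TPM (-1.27 and -1.31).
HIST2H2BF: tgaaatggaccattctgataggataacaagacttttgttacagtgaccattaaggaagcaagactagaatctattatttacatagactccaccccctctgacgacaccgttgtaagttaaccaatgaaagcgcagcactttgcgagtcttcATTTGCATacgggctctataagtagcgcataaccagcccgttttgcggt
HIST1H2BO: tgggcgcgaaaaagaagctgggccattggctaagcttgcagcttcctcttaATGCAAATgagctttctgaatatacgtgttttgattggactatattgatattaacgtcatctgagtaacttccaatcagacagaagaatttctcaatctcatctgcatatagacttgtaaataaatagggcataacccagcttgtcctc

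Genes of homologous recombination, Fanconi, mismatch and end joining repair fell as well: 33 of 48 were lower and none higher (25 to 32 lower with another column left out), with a median of -0.53 over all 6 columns and -0.48 without vehicle column 1. BRCA1, a scaffold of homologous recombination, was at 7.23, 7.35 and 6.95 TPM in the vehicle columns and 3.73, 4.08 and 3.85 TPM with doxycycline (-0.74 and -0.74), without overlap between the arms.

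Other chromatin regulators were mixed. Of 14 tested genes of DNA methylation and its reading, 4 fell and none rose: DNMT1, its targeting factor UHRF1 at 22.8, 27.1 and 28.3 TPM in the vehicle columns and 9.8, 10.6 and 10.6 TPM with doxycycline (-1.25 and -1.34), the remodeller HELLS from 19.1 ± 1.27 to 7.19 ± 0.543 TPM (-1.29 and -1.34) and MBD3 from 16.9 ± 3.68 to 9.89 ± 0.582 TPM (-0.70 and -0.54). Of 26 Polycomb genes, 8 fell and 3 rose (5 to 7 lower and 0 to 3 higher with another column left out, 0 higher and 5 lower without rescaling). Those that fell include EED (-0.56 and -0.61), CBX2 (-0.56 and -0.62) and PHF19 (-0.75 and -0.65), and those that rose are EZH1 (0.44 and 0.37), RING1 (0.31 and 0.28) and PCGF1 (0.34 and 0.31). In the chromatin remodeller SWI/SNF, 7 of 23 subunits fell and 1 rose (1 to 4 lower and 0 to 1 higher with another column left out, 0 higher and 5 lower without rescaling), with SMARCD1 from 25.95 ± 1.37 to 18.4 ± 0.721 TPM (-0.47 and -0.51) and PBRM1 from 7.003 ± 1.54 to 4.09 ± 0.202 TPM (-0.64 and -0.48) among those that fell, and BCL7A rose from 5.02 ± 0.737 to 6.89 ± 0.165 TPM (0.40 and 0.29).

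Nuclear transport and RNA processing fell in most members. Of 33 nuclear pore and transport genes, 22 were lower and none higher (14 to 19 lower with another column left out), with a median of -0.44 over all 6 columns and -0.43 without vehicle column 1. NUP43, of the pore's outer ring, was at 9.73, 11.8 and 11.8 TPM in the vehicle columns and 4.43, 4.77 and 3.96 TPM with doxycycline (-1.16 and -1.25), and LBR, the lamin B receptor, at 14.2, 11.97 and 12.05 TPM in the vehicle columns and 4.92, 5.38 and 4.91 TPM with doxycycline (-1.18 and -1.10). Of 47 splicing factors, 25 fell and none rose. The SR proteins SRSF2, SRSF3 and SRSF1 went from 42.1 ± 0.95 to 21.7 ± 0.442 TPM (-0.92 and -0.92), 60.5 ± 0.776 to 34.3 ± 1.02 TPM (-0.80 and -0.79) and 47.5 ± 0.847 to 26.2 ± 1.26 TPM (-0.83 and -0.84). The count of splicing genes called lower ranged from 11 to 20 when any one other column was left out.

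Protein folding and turnover lists also leaned lower. Of 19 cytosolic heat shock chaperones, 8 fell and none rose (4 to 7 lower with another column left out). HSPA8, the constitutive HSP70, was at 609, 533 and 511 TPM in the vehicle columns and 386, 385 and 348 TPM with doxycycline (-0.56 and -0.48), and STIP1, which joins HSP70 to HSP90, went from 96.2 ± 2.71 to 68.8 ± 2.23 TPM (-0.48 and -0.46). Of the 8 chaperonin subunits, 5 fell (1 to 3 lower with another column left out). In the proteasome, 7 of 32 fell and 1 rose (2 to 4 lower and 0 higher with another column left out, 0 higher and 5 lower without rescaling). The fit without vehicle column 1 called 18 lower and 2 higher, beside 27.9% and 28.1% of all genes. PSMB5, the catalytic subunit with chymotrypsin-like activity, was at 51.7, 47.3 and 46.4 TPM in the vehicle columns and 18.9, 18.2 and 18.8 TPM with doxycycline (-1.33 ± 0.07 over all 6 columns and -1.29 ± 0.03 without vehicle column 1; adjusted p = 0.00038 and 3.2e-05), far from the list's median of -0.20 over all 6 columns and -0.17 without vehicle column 1. PSMB7, the subunit with trypsin-like activity, rose from 222 ± 29.1 to 290.1 ± 11.8 TPM (0.39 and 0.28), but its difference was -0.046 when both vehicle column 1 and the rescaling were left out. Nuclear genes of oxidative phosphorylation (8 of 43 lower, 18.6%, and 2 to 4 with another column left out) and mitochondrial ribosomal proteins (15 of 77 lower, 19.5%, and 4 to 10 with another column left out) were near the 14.3% of all genes.

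Cytosolic ribosomal proteins lay slightly higher: 11 of 83 rose and none fell (0 to 3 higher with another column left out), with a median of 0.21 over all 6 columns and 0.17 without vehicle column 1. The fit without that column called 24 higher and 2 lower, beside 28.1% and 27.9% of all genes. The share that rose, 13.3%, is close to the 13.8% of all genes, and without rescaling none was called and the median was -0.08. RPL4 went from 889.7 ± 104 to 1173 ± 54.6 TPM (0.40 and 0.31). The genes called only over all 6 columns include RPL12, EEF1A1, RPS4X, RPL29, RPL8 and RPL24 higher, and GAPDH lower. RPL12 was at 1768, 2467 and 2322 against 3248, 2874 and 3209 TPM (adjusted p = 0.036 and 0.052).

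Genes regulated by p53 leaned higher. Of 30 tested targets, 16 rose and 2 fell, with a median of 0.38 over all 6 columns and 0.29 without vehicle column 1. Without rescaling 5 were higher and 2 lower both ways with a median of 0.11, and leaving out any one other column left 12 or more called higher. GADD45A, a stress sensor, was at 14.1, 14.6 and 15.1 TPM in the vehicle columns and 39.2, 48.7 and 42.1 TPM with doxycycline (1.502 ± 0.09 over all 6 columns and 1.48 ± 0.09 without vehicle column 1; adjusted p = 0.0006 and 8.2e-05). BBC3, the cell death protein PUMA, went from 3.98 ± 0.499 to 8.82 ± 0.492 TPM (0.98 and 0.91), SESN2, an inhibitor of mTORC1, from 12.5 ± 1.99 to 26.97 ± 3.01 TPM (1.06 and 0.93), and TP53I3 from 2.41 ± 0.19 to 5.27 ± 0.344 TPM (0.88 and 0.90). Those that fell are PMAIP1, the cell death protein NOXA, from 5.61 ± 0.302 to 2.85 ± 0.435 TPM (-0.78 and -0.82), and CCNG1, cyclin G1, from 34.9 ± 6.29 to 23.1 ± 1.45 TPM (-0.56 and -0.71). In the BCL2 family 5 of 14 rose and 2 fell (3 to 5 higher and 2 lower with another column left out). BCL2L1 and BOK rose from 36.6 ± 2.92 to 53.4 ± 2.76 TPM (0.54 and 0.47) and 6.77 ± 0.161 to 10.4 ± 0.506 TPM (0.55 and 0.55), while BCL2 was at 1.9, 2.05 and 1.94 TPM in the vehicle columns and 1.13, 1.01 and 1.04 TPM with doxycycline (-0.52 and -0.54). Without rescaling 0 were higher and 2 lower in that family.

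Genes of the integrated stress response did not share a direction. This response halts most translation and raises ATF4 and its targets. Of 31 tested genes 5 rose (16.1%) and 6 fell (19.4%), beside 13.8% and 14.3% of all genes (5 higher and 1 to 2 lower with another column left out, 4 higher and 8 lower without rescaling), with a median of -0.01 over all 6 columns and -0.04 without vehicle column 1. DDIT3, the transcription factor CHOP, was at 15.1, 14.6 and 14.3 TPM in the vehicle columns and 43.5, 44.3 and 42.3 TPM with doxycycline (1.503 ± 0.06 over all 6 columns and 1.52 ± 0.04 without vehicle column 1; adjusted p = 0.00038 and 3.2e-05), and PPP1R15A, which ends the response, at 77.7, 102 and 102 TPM in the vehicle columns and 194, 189.8 and 205 TPM with doxycycline (1.07 and 0.94). The members that fell are PSAT1, PHGDH and PSPH, the serine synthesis enzymes, the transporters SLC38A2 and SLC1A5, and CHAC1, which degrades glutathione. PHGDH was at 41.5, 59.1 and 64.4 TPM in the vehicle columns and 29.2, 32.4 and 31.7 TPM with doxycycline (-0.78 and -0.97), and SLC38A2 at 119, 119 and 117 TPM in the vehicle columns and 74.8, 78.8 and 76.4 TPM with doxycycline (-0.62 and -0.61). ATF4 itself was at 154, 162 and 154 against 178, 171 and 177 TPM and not called over all columns (adjusted p = 0.091 and 0.028).

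Among 20 aminoacyl-tRNA synthetases 2 rose and 2 fell (0 to 1 higher and 2 lower with another column left out, 0 higher and 2 lower without rescaling). These shares, 10% each, are below the 13.8% and 14.3% of all genes. WARS, for tryptophan, was at 47.96, 60.5 and 59.8 TPM in the vehicle columns and 18.5, 21.5 and 19.4 TPM with doxycycline (-1.45 ± 0.11 over all 6 columns and -1.56 ± 0.06 without vehicle column 1; adjusted p = 0.001 and 4.1e-05), and DARS, for aspartate, went from 17.4 ± 2.22 to 7.65 ± 0.392 TPM (-1.08 and -1.19). AARS, for alanine, rose from 61.6 ± 9.7 to 95.4 ± 1.73 TPM (0.64 and 0.50). SARS, for serine, was called higher (0.30 and 0.24) but had a difference of -0.076 when both vehicle column 1 and the rescaling were left out. Of 22 genes of the endoplasmic reticulum stress response, ERN1, ATF6 and HSPA5 rose (13.6%), and PDIA4 was among the 2 that fell (9.09%). The share that rose is near the 13.8% of all genes, and the share that fell is below their 14.3%. HSPA5, the chaperone BiP, was at 186, 162 and 161 against 214, 224 and 211 TPM, and without rescaling 0 were higher and 4 lower in this list.

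Metallothioneins are small proteins that bind zinc and copper, and 4 of them rose. MT1X was at 331, 493 and 467 TPM in the vehicle columns and 1629.6, 1424 and 1627 TPM with doxycycline (1.87 ± 0.16 over all 6 columns and 1.70 ± 0.09 without vehicle column 1; adjusted p = 0.0013 and 7.2e-05), MT2A at 1581, 2582 and 2685 TPM in the vehicle columns and 4872, 4391 and 4574 TPM with doxycycline (1.05 and 0.81) and MT1E at 374, 711 and 727 TPM in the vehicle columns and 1730.3, 1580.1 and 1619 TPM with doxycycline (1.504 and 1.19). MT1F rose as well, from 4.94 ± 1.94 to 14.2 ± 1.3 TPM (1.41 and 1.10). The zinc transporters SLC30A7 (-0.54 and -0.57) and SLC39A10 (-0.38 and -0.38) fell. In all 4 of 15 tested rose and 2 fell (2 to 6 higher and 2 lower with another column left out), and without rescaling 3 were higher and 2 lower. The MT1 copies resemble one another, so reads may be split among them.

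The promoters of MT1X and MT2A are printed for their metal response words. TGCACNC and TGCGCNC were searched on both strands, with matches that do not overlap an E2F, TTTGAA or octamer word. MT1X (chr16:56682270-56682469, plus strand) holds 4 and MT2A (chr16:56608384-56608583, plus strand) holds 6 in the printed bases, while 24.7% of all promoters and 34.3% of tested genes hold at least 1. Only these 2 of the tested metallothionein genes had a matched promoter, so MT1E and MT1F were not searched. In the list with zinc handling genes, 4 of 10 matched members (40%) hold at least 1.
MT1X: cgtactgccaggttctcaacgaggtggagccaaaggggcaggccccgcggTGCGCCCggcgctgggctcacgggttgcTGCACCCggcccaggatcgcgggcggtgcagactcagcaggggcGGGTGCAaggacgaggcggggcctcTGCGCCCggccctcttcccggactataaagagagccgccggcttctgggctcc
MT2A: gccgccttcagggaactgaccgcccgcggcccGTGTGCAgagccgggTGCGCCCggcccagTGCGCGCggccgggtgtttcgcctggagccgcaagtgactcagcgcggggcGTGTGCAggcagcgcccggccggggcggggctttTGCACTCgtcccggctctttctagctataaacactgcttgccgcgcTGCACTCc

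Oxidative stress genes did not share a direction: of 27 NRF2 targets and glutathione enzymes 3 rose and 3 fell (2 to 3 higher and 0 to 3 lower with another column left out, 1 higher and 3 lower without rescaling). These shares, 11.1% each, are below the 13.8% and 14.3% of all genes. OSGIN1, an oxidative stress growth inhibitor, was at 2.02, 2.29 and 2.11 TPM in the vehicle columns and 9.53, 8.33 and 9.41 TPM with doxycycline (1.68 and 1.65). FTL, the ferritin light chain, was at 2094, 2031 and 1913 against 3262, 2842 and 3248 TPM. PRDX1, a peroxidase, fell from 281 ± 50.5 to 166 ± 5.26 TPM (-0.74 and -0.60), CBR1 from 17.4 ± 2.15 to 12.1 ± 0.115 TPM (-0.49 and -0.40), and NFE2L2, which encodes NRF2, from 10.8 ± 1.17 to 8.41 ± 0.494 TPM (-0.33 and -0.25).

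Lysosome and autophagy genes leaned higher, with 14 of 41 up, 3 down and a median of 0.16 over all 6 columns and 0.21 without vehicle column 1. GABARAPL2, a protein that coats autophagosome membranes, was at 28.4, 30.5 and 29.4 TPM in the vehicle columns and 65.5, 66.9 and 61.8 TPM with doxycycline (1.11 ± 0.06 over all 6 columns and 1.09 ± 0.05 without vehicle column 1; adjusted p = 0.0006 and 4.1e-05). WIPI1, which marks sites of autophagosome formation, went from 5.73 ± 0.913 to 13.5 ± 0.242 TPM (1.12 and 1.00), NPC1, a cholesterol exporter of lysosomes, from 12.5 ± 1.63 to 21.7 ± 1.04 TPM (0.75 and 0.85), and TPP1, a lysosomal peptidase, from 36.2 ± 4.39 to 64.4 ± 4.35 TPM (0.82 and 0.72). GUSB (-0.54 and -0.64), NAGLU (-0.32 and -0.38) and ATG5 (-0.33 and -0.25) fell. The count called higher over the remaining columns fell to 6 when one other column was left out, and without rescaling 3 were higher and 1 lower in both fits, with a median of -0.09.

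**Figure D5:**
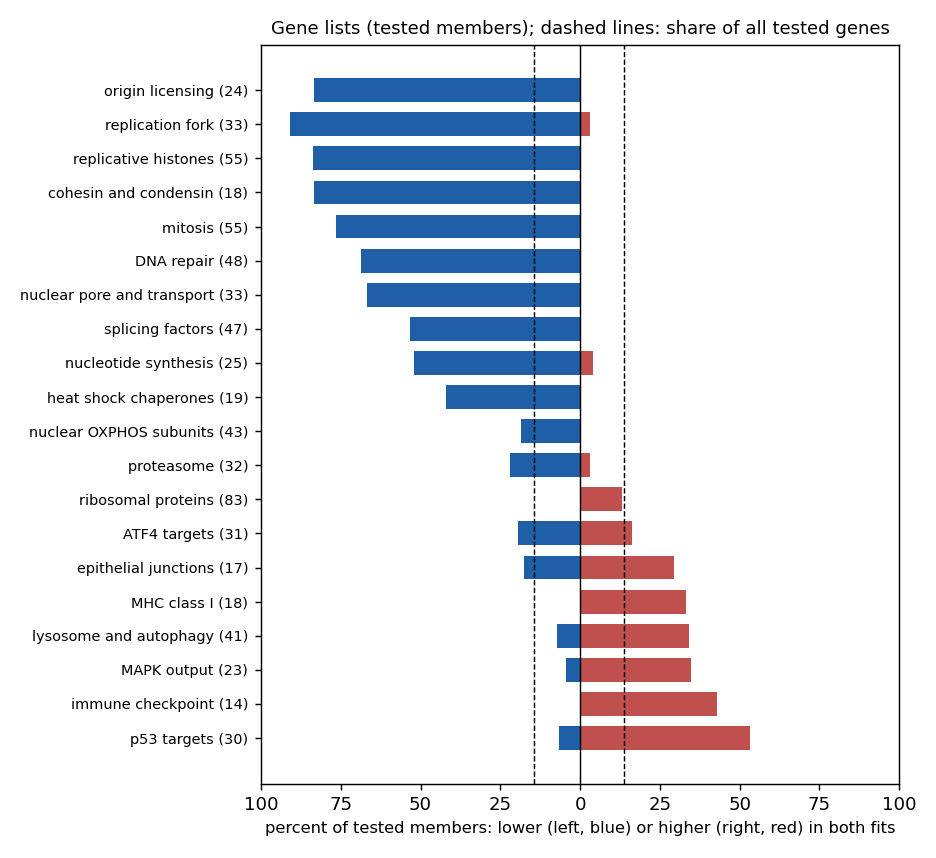
Percent of the tested members of 20 gene lists that were lower (left, blue) or higher (right, red) in both fits, with bars starting at 0, the number tested in brackets and dashed lines at the 14.3% lower and 13.8% higher of all tested genes. The replication fork (30 of 33 lower), origin licensing (20 of 24) and replication-dependent histones (46 of 55) have the longest bars to the left, with cohesin and condensin (15 of 18) beside them, and p53 targets (16 of 30 higher) the longest to the right.

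Surface genes seen by immune cells rose in part. Of 18 tested genes of MHC class I and antigen processing, 6 rose and none fell (3 to 5 higher with another column left out), with HLA-B, PSMB8, TAP2, TAP1 and HLA-C among those that rose. The fit without vehicle column 1 called 10 of the 18 higher and 5 lower, beside 28.1% and 27.9% of all genes. HLA-B was at 2.63, 2.8 and 2.81 TPM in the vehicle columns and 7.33, 7.01 and 6.9 TPM with doxycycline (1.11 ± 0.05 over all 6 columns and 1.09 ± 0.05 without vehicle column 1; adjusted p = 0.00038 and 4.7e-05), and PSMB8, a subunit of the immunoproteasome, at 1.45, 1.44 and 1.48 against 2.75, 2.72 and 2.69 TPM. HLA genes are alike in sequence, so their reads can be split. Without rescaling 1 was higher and 4 lower in this list, and its median was -0.19 in place of 0.10. Of 19 death receptors and other natural killer ligands, 6 rose (3 to 6 higher with another column left out), with TNFRSF10B, a TRAIL receptor, at 20.6, 28.8 and 27.2 against 44.1, 46.1 and 47.1 TPM (0.83 and 0.69) and FAS at 1.24, 1.89 and 1.82 against 3.35, 3.68 and 3.25 TPM (0.75 and 0.63). Of 14 immune checkpoint genes, 6 rose (2 to 4 higher with another column left out), PDCD1LG2, which encodes PD-L2, from 3.05 ± 0.453 to 6.36 ± 0.222 TPM (0.87 and 0.77) and CD55, which restrains complement, from 6.27 ± 1.76 to 11.6 ± 1.002 TPM (0.81 and 1.01) among them. Without rescaling no member of the latter 2 lists was called both ways. The fit without vehicle column 1 called 11 of the 19 higher and 2 lower, and 8 of the 14 higher and 1 lower. Of all genes that fit called 28.1% higher and 27.9% lower.

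Of 15 NF-kB targets, 5 rose and none fell, with a median of 0.32 over all 6 columns and 0.42 without vehicle column 1. The fit without that column called 9 higher and 3 lower, beside 28.1% and 27.9% of all genes. ICAM1, an adhesion molecule for leukocytes, was at 5.44, 9.57 and 9.66 against 16.05, 15.4 and 15.6 TPM (0.89 and 0.65) and IL32, a cytokine, at 26.3, 48.3 and 49.8 against 84.4, 80.97 and 82.3 TPM (1.03 and 0.74). Both were lower in vehicle column 1 than in the other vehicle columns. Without rescaling 1 member was higher both ways, and as few as 1 was called higher when one other column was left out. Of 26 interferon-stimulated genes, 6 rose and 2 fell (1 to 5 higher and 1 to 2 lower with another column left out). That is 23.1% and 7.69%, beside 13.8% and 14.3% of all genes. IFI27 was at 3.48, 5.08 and 6.17 against 10.2, 11.3 and 9.75 TPM, and OAS3, a sensor of double-stranded RNA, fell at 5.34, 5.96 and 5.83 against 3.01, 3.45 and 3.45 TPM (-0.64 and -0.68). Without rescaling 1 was higher and 3 lower in that list.

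Of 40 genes of exosome release and biogenesis, 7 rose and 4 fell (1 to 4 higher and 1 to 2 lower with another column left out), with a median of 0.18 over all 6 columns and 0.12 without vehicle column 1. The shares that rose and fell, 17.5% and 10%, stand beside 13.8% and 14.3% of all genes. The fit without vehicle column 1 called 20 higher and 7 lower, beside 28.1% and 27.9% of all genes. FLOT1, a flotillin of membrane rafts, was at 4.18, 4.002 and 4.24 TPM in the vehicle columns and 7.43, 7.57 and 7.42 TPM with doxycycline (0.72 ± 0.05 over all 6 columns and 0.73 ± 0.05 without vehicle column 1; adjusted p = 0.00092 and 0.00012). STX4, a membrane fusion protein (0.45 and 0.38), and CHMP4B, of the ESCRT machinery (0.34 and 0.33), rose. RAB7A, of late endosomes, was at 99.5, 113 and 108 against 138, 132 and 137 TPM, with a difference of 0.34 and 0.29 that came to -0.029 when both vehicle column 1 and the rescaling were left out. ARF6 fell from 30.9 ± 1.27 to 22.6 ± 0.771 TPM (-0.43 and -0.40) and PDCD6IP, the ESCRT adaptor ALIX, from 15.3 ± 0.11 to 12.2 ± 0.622 TPM (-0.31 and -0.32). Without rescaling 0 were higher and 4 lower in both fits, and the median was -0.10. Of 10 proteins tied to the shedding of NKG2D ligands, 2 rose and PDIA6 fell (1 to 2 higher and 0 lower with another column left out, 0 higher and 1 lower without rescaling). That is 20% and 10%, beside 13.8% and 14.3% of all genes. RHBDF2, a partner of the sheddase ADAM17, rose from 1.77 ± 0.214 to 3.3 ± 0.269 TPM (0.64 and 0.69), and the inhibitor TIMP1 from 211 ± 26.2 to 311 ± 5.59 TPM (0.57 and 0.46).

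Epithelial genes of the line were higher in 5 of 17 tested junction genes and lower in 3 (3 to 5 higher and 0 to 1 lower with another column left out). PKP3, a plakophilin of desmosomes, was at 1.27, 1.57 and 1.46 TPM in the vehicle columns and 4.51, 4.72 and 5.15 TPM with doxycycline (1.25 ± 0.08 over all 6 columns and 1.20 ± 0.06 without vehicle column 1; adjusted p = 0.00079 and 5.8e-05). CLDN12, a claudin, and F11R, which encodes the junctional adhesion molecule JAM-A, went from 9.92 ± 1.47 to 22.7 ± 0.679 TPM (1.13 and 1.01) and 2.49 ± 0.408 to 5.61 ± 0.0946 TPM (0.93 and 0.83). The 3 that fell are CTNNB1, beta-catenin, at 62.1, 60.2 and 60.7 against 47.7, 49.96 and 44.9 TPM, DSG2 (-0.39 and -0.48) and NECTIN1 (-0.32 and -0.26). Without rescaling 2 were higher and 3 lower. Of 11 keratins and envelope genes, 3 rose and 1 fell (1 to 4 higher and 0 to 1 lower with another column left out, 2 higher and 2 lower without rescaling), with LCE1F among those that rose and KRT10 lower (-0.34 and -0.39). KRT8 went from 6.93 ± 1.9 to 13.2 ± 0.687 TPM (0.87 and 0.66) and SFN, a 14-3-3 protein of epithelia, from 22.3 ± 6.51 to 51.05 ± 2.3 TPM (1.20 and 0.95). The summed level of the junction list was 177, 176 and 176 TPM with vehicle and 187, 189 and 185 TPM with doxycycline.

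Of 38 tested mesenchymal and matrix genes, 3 rose and 2 fell (1 to 3 higher and 1 to 2 lower with another column left out, 1 higher and 5 lower without rescaling). These shares, 7.89% and 5.26%, cannot be compared with the 13.8% and 14.3% of all genes. Many of the 38, such as FN1, CDH2, COL1A2 and SPARC, were at or near 0 TPM outside vehicle column 1. They were tested only because of that column and could hardly be called both ways. The summed level of the list was 2092 TPM in vehicle column 1, 797 and 789 TPM in the other vehicle columns, and 906 to 948 TPM with doxycycline. Its median was -1.33 over all 6 columns and 0.00 without vehicle column 1, where such genes hardly differ. AXL, a receptor kinase, fell at 88.5, 109 and 110.1 TPM in the vehicle columns and 67.1, 64.1 and 68.01 TPM with doxycycline (-0.61 and -0.72), and ZEB1, a repressor of epithelial genes, at 20.2, 25.8 and 24.2 TPM in the vehicle columns and 16.7, 16.7 and 15.8 TPM with doxycycline (-0.48 and -0.58). SNAI1, another such repressor, rose at 1.45, 1.29 and 1.32 TPM in the vehicle columns and 3.07, 2.56 and 3.49 TPM with doxycycline (0.77 and 0.80). The 8 tested members of the fibroblast and endothelial list, which include no endothelial marker, were not called over all columns. Vimentin (VIM) was at 339.8, 2.02 and 2.15 against 1.19, 1.34 and 1.21 TPM (adjusted p = 0.31 and 0.00033).

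Growth factor signalling genes rose in part. Of 23 genes of MAPK output, 8 rose and 1 fell (6 higher and 1 lower with another column left out), with a median of 0.29 over all 6 columns and 0.19 without vehicle column 1. DUSP5, a phosphatase that feeds back on ERK, was at 20.1, 34.1 and 32.8 TPM in the vehicle columns and 71.2, 70.3 and 71.9 TPM with doxycycline (1.30 ± 0.20 over all 6 columns and 1.07 ± 0.03 without vehicle column 1; adjusted p = 0.0061 and 3.7e-05). IER3 and EGR1, immediate early genes, were at 4.11, 3.02 and 3.02 against 7.9, 8.35 and 9.3 TPM and 35.2, 44.6 and 42.9 against 72.9, 71.9 and 82.5 TPM. MYC, the growth-promoting transcription factor, was at 42.3, 57.1 and 55.7 TPM in the vehicle columns and 104, 99.9 and 99.4 TPM with doxycycline (0.96 and 0.83), every doxycycline column above every vehicle column. EMP1 fell from 65.3 ± 7.01 to 40.1 ± 0.622 TPM (-0.68 and -0.60). Without rescaling 3 were higher and 1 lower in the list, and its median was 0.0020. Of 10 genes of the EGFR family, its ligands and MET, 3 rose (2 to 3 higher with another column left out): MET from 23.5 ± 0.78 to 39.4 ± 0.967 TPM (0.72 and 0.70), HBEGF from 2.003 ± 0.442 to 3.82 ± 0.309 TPM (0.69 and 0.81) and ERBB3 from 1.56 ± 0.443 to 2.67 ± 0.0338 TPM (0.53 and 0.38), and without rescaling none was called both ways. Of 9 integrins 3 rose (1 to 2 higher with another column left out), ITGB1 from 208 ± 7.79 to 302 ± 7.31 TPM (0.54 and 0.53) and ITGA2 from 3.32 ± 1.1 to 7.69 ± 0.299 TPM (1.04 and 0.81) among them, and ITGB5 fell. Without rescaling no integrin was called both ways, and their median was -0.33.

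Metabolic lists were mixed. Of 31 glycolysis and hypoxia genes, 5 rose and 7 fell (5 higher and 3 to 4 lower with another column left out). These shares, 16.1% and 22.6%, stand beside 13.8% and 14.3% of all genes. Among those that fell, PGAM1, phosphoglycerate mutase, was at 42.2, 38.4 and 39.5 TPM in the vehicle columns and 12.4, 12.9 and 13.8 TPM with doxycycline (-1.55 ± 0.07 over all 6 columns and -1.51 ± 0.05 without vehicle column 1; adjusted p = 0.00038 and 3.7e-05), and LDHA, lactate dehydrogenase, at 220.4, 163 and 156 TPM in the vehicle columns and 75.1, 74.6 and 68.9 TPM with doxycycline (-1.27 and -1.12). The glucose transporters SLC2A1 and SLC2A3 rose from 7.74 ± 1.14 to 14.04 ± 0.486 TPM (0.79 and 0.68) and 4.97 ± 0.917 to 9.91 ± 0.732 TPM (0.88 and 1.00), and NDRG1 from 4.65 ± 0.206 to 9.64 ± 0.122 TPM (0.91 and 0.89). Without rescaling 1 was higher and 4 lower. Of 24 cholesterol synthesis genes 4 rose and 4 fell, 16.7% each beside 13.8% and 14.3% of all genes (1 to 2 higher and 0 to 1 lower with another column left out, 0 higher and 2 lower without rescaling). MSMO1 rose from 13.6 ± 0.724 to 19.1 ± 1.38 TPM (0.45 and 0.46) and FDPS fell from 37.5 ± 2.995 to 28.6 ± 0.678 TPM (-0.38 and -0.31). Of 16 fatty acid synthesis genes, 3 fell (18.8%, near the 14.3% of all genes) and 1 rose (0 to 3 lower and 0 higher with another column left out, 0 higher and 3 lower without rescaling). TECR, from 25.8 ± 3.9 to 15.7 ± 1.13 TPM (-0.67 and -0.56), and SCD, from 75.9 ± 16.95 to 47.3 ± 1.45 TPM (-0.65 and -0.47), were among those that fell.

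Without vehicle column 1, 1508 further genes were called higher and 1429 lower. Those with the largest differences were GPRC5A, TMSB4X, RND3, MFAP2, HIST1H3G, KLF6, HMOX1 and MVP. GPRC5A, a retinoic acid-induced receptor, was at 17.6, 1.41 and 1.43 TPM in the vehicle columns and 5.7, 6.3 and 6.53 TPM with doxycycline (adjusted p = 0.6 and 4.1e-05). RND3, a small GTP-binding protein, was at 17.3, 3.37 and 2.98 TPM in the vehicle columns and 9.66, 9.8 and 9.43 TPM with doxycycline, and HMOX1, heme oxygenase, at 32.2, 13.4 and 12.2 TPM in the vehicle columns and 27.8, 28.5 and 30.8 TPM with doxycycline. MFAP2, a microfibril protein, was listed at 0 in vehicle columns 2 and 3, at 8.11, 0 and 0 against 1.31, 1.64 and 1.49 TPM in all. In these 4 genes vehicle column 1 exceeds every doxycycline column, while the other vehicle columns lie below them. TMSB4X, an actin-binding peptide, was at 695, 101 and 123 TPM in the vehicle columns and 41.3, 46.2 and 35.1 TPM with doxycycline and called lower only without that column. KLF6 and MVP were called higher only without it, and HIST1H3G lower.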

How the data were processed

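RNA of RKO cells cultured in triplicate was sequenced (RNeasy Plus Mini and TruSeq Stranded mRNA kits, per the labels' protocols). The submitters' processing notes name STAR, DESeq2 and the build GRCh38, with no versions. The authors deposited TPM per gene, scaled to 1000000 per column. TPM keep no read totals, so the depth per sample is unknown.

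Of 25673 listed genes, 242 small noncoding RNA rows (by name and gene type) were removed, and the columns were rescaled by the median ratio over 10385 genes (divisors 0.762 to 1.22). For genes with a mean of at least 1 TPM, log2(TPM + 1) was fitted two-sided with limma (version 3.58.1, R 4.3.3) with a variance trend, and p-values were adjusted by Benjamini-Hochberg over 10506 genes. The same genes were tested without vehicle column 1. The procedure was also run on simulated data, but no outcome of that run is given here. That run is not taken as a test of the fit over all columns, to which vehicle column 1 adds a larger spread. The p-values measure only the spread between these cultures. Arms came from the headings, whose numbers could not be tied to sample titles.

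Gene lists and members were chosen with earlier results of these data known, so lists are described by counts and medians with no test of the list. Genes were named by rule: the 9 study genes, the 12 genes that rose most and the 12 that fell most by the smaller change of the 2 fits, up to 6 members per list with the smallest larger adjusted p, members called against the list's direction, and 8 genes per fit called in that fit only. The 12 rising and 12 falling genes were taken among genes called both ways whose arms did not overlap. CDC6, CDC20, CHAC1, GINS2, ORC1, PCNA, PHGDH, PSAT1, PSPH, RRM2, ATF4, RB1 and VIM fall outside the rule and were added after their values were seen. Some genes the rule names are not reported here. Promoters are RefSeq windows of GRCh38.p14 and gene positions are from GENCODE release 29.

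Alternatives tried: a pseudocount of 0.1 or 5, a minimum of 5 TPM or none, no rescaling with and without small noncoding RNA, rescaling to 1000000, name patterns alone, no trend, array weights, robust moderation, the column number as a block, each column left out, and the minimum applied without vehicle column 1.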

Additional observations from a re-analysis of the deposited data

How the results depend on the processing

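The number of calls depends on the spread that vehicle column 1 adds, and the share of higher calls on the scaling. Leaving out one column at a time gave 541 to 2954 genes higher and 647 to 2930 lower over the remaining columns, and 541 to 1000 higher and 647 to 1029 lower in both fits. Array weights, which give a less regular column less weight, gave 3556 higher and 3518 lower over all 6 columns and 3318 and 3308 in both fits, with MUC1 at -0.83. With the column number as a replicate block the counts were 821 and 893, and 820 and 893 in both fits. Deviations of same-numbered columns from their arm means had correlations of -0.0023, 0.016 and -0.018. Their SD was 0.456, 0.231 and 0.233 in the vehicle columns and 0.054 to 0.069 with doxycycline. Vehicle column 1 thus sets most of the vehicle deviations, so these correlations cannot show whether the numbers pair the columns. A minimum of 5 TPM left 1948 genes higher without vehicle column 1, among fewer genes tested. Without rescaling, 224 genes were higher over all columns, 253 without vehicle column 1 and 138 in both fits. More gene lists then had most calls lower (50) than higher (7). With small noncoding RNA kept as well the values were 220, 260 and 137 genes and 49 and 8 lists. MUC1 was called over all columns with a pseudocount of 0.1 (-3.37), at -1.88 under both settings without rescaling, and at -0.79 without vehicle column 1; its differences ranged from -2.27 to -0.79 as columns were left out. The cause was not tested. Under both settings without rescaling the sign changed over all columns for RPL24 (-0.061) and RPL8 (-0.043). Without vehicle column 1 it changed for ATF4 (-0.17), CCNE1 (-0.032), KIF3C (-0.053), KIFC2 (-0.0094), PPAT (-0.037), PSMB7 (-0.046), RAB7A (-0.029), RPL4 (-0.015) and SARS (-0.076). No other called gene named in the text changed sign under the alternatives run. TPM carry no read totals, so what depth limits cannot be given, and genes near 1 TPM such as MICA and MICB differ by a fraction of a TPM.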

Other observations

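Gene families outside the comparisons above were counted the same way, with genes called both over all 6 columns and without vehicle column 1, beside 13.8% of all genes higher and 14.3% lower. Of 28 tested kinesins, motor proteins of microtubules, 11 fell and 5 rose (6 to 11 lower and 1 to 3 higher with another column left out). Those that fell include the mitotic motors KIF11, KIF22, from 19.99 ± 0.387 to 12.7 ± 0.574 TPM (-0.61 and -0.60), and KIF15, from 6.99 ± 0.353 to 4.24 ± 0.179 TPM (-0.61 and -0.57). Those that rose are KIF3A, KIF21A, KIF13B, KIF3C and KIFC2, which are known for transport or other roles, with KIF21A from 4.59 ± 1.01 to 8.58 ± 0.216 TPM (0.80 and 0.64) and KIF3A from 4.88 ± 0.204 to 6.79 ± 0.281 TPM (0.41 and 0.43). Without rescaling 0 were higher and 10 lower in this family, and when vehicle column 1 was left out as well the differences of KIF3C and KIFC2 were -0.053 and -0.0094.

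Of 21 tested snoRNA host genes, noncoding transcripts whose introns hold small nucleolar RNAs, 7 rose and 2 fell (3 to 6 higher and 1 to 2 lower with another column left out). SNHG8 was at 51.7, 72.2 and 67.1 TPM in the vehicle columns and 135, 135 and 122 TPM with doxycycline (1.04 and 0.90), and ZFAS1 went from 146 ± 16.2 to 231 ± 24.5 TPM (0.66 and 0.57). SNHG4 and SNHG11 fell from 3.97 ± 0.377 to 2.33 ± 0.162 TPM (-0.58 and -0.52) and 4.26 ± 0.594 to 2.93 ± 0.348 TPM (-0.42 and -0.34). Without rescaling 1 was higher and 3 lower among them. Of 56 tested genes named LINC, 10 rose and 2 fell (6 to 9 higher and 0 to 1 lower with another column left out). LINC00460 was at 7.91, 11.5 and 13.5 TPM in the vehicle columns and 24.4, 25.98 and 25.1 TPM with doxycycline (1.16 and 0.96), and LINC02085 went from 4.67 ± 1.28 to 11.3 ± 0.518 TPM (1.15 and 0.95). LINC00339 and LINC01537 fell from 2.28 ± 0.358 to 1.34 ± 0.0782 TPM (-0.48 and -0.39) and 12.4 ± 3.54 to 6.69 ± 0.422 TPM (-0.77 and -1.01). Without rescaling 3 were higher and 2 lower among the LINC genes.

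Of 333 tested zinc finger genes named ZNF, 42 rose (12.6%) and 26 fell (7.81%) (15 to 31 higher and 6 to 13 lower with another column left out), and without rescaling 1 was higher and 14 lower. The fit without vehicle column 1 called 84 higher and 70 lower, beside 28.1% and 27.9% of all genes. Besides ZNF165, ZNF267 rose from 4.55 ± 0.209 to 7.97 ± 0.579 TPM (0.69 and 0.72), while ZNF367 fell from 5.89 ± 1.07 to 2.24 ± 0.251 TPM (-1.08 and -1.21). Of 151 solute carriers, 24 rose (15.9%) and 12 fell (7.95%) (11 to 20 higher and 6 to 10 lower with another column left out), and without rescaling 2 were higher and 14 lower. SLC41A2, a magnesium transporter, rose from 1.14 ± 0.0967 to 2.78 ± 0.0772 TPM (0.82 and 0.79), and SLC25A40, a mitochondrial carrier, fell from 4.24 ± 0.135 to 2.07 ± 0.0493 TPM (-0.77 and -0.77). CD68, a lysosomal glycoprotein best known from macrophages, was at 114, 215 and 208 TPM in the vehicle columns and 514, 456 and 502 TPM with doxycycline (1.504 and 1.21). It made up nearly all of the summed leukocyte and erythroid markers, whose other 20 genes had a mean under 1 TPM.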
